A study of Swertia japonica with 2 samples.

Results

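Between the roots and the aerial tissues of Swertia japonica, 133 of the 81729 assembled transcripts (0.163%) were both abundant and balanced. A transcript assembled from the reads without a genome is called a unigene here. These members were chosen from their measured levels: a length of 500 to under 5000 bases, at least 200 TPM in both libraries, and a larger TPM under 2 times the smaller. They are 0.310% of the 42885 unigenes in that length window. TPM divides each transcript's reads by its effective length and scales each library to 1 fixed sum, so levels can be set side by side between unigenes. Because TPM chose the members, their TPM levels and ratios are a description.

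Swertia japonica, of the gentian family, is a herb known for its bitter taste and used in medicine. Plants grown outdoors in a medicinal garden were harvested at an age of 6 months and dissected into roots and aerial tissues, and the labels give no treatment. Poly(A)-selected RNA of each part gave 1 strand-specific library, with 4207068 counts in roots and 5351257 in aerial tissues. The labels do not say how many plants went into each, and the label aerial tissues does not separate stems from leaves. With 1 library per tissue there is no replicate check: all differences are between these particular libraries, p-values were not computed, and intervals reflect counting error alone.

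Transcripts that stand high in every organ of a plant commonly encode the machinery that all living cells need, such as ribosomal proteins, translation factors, the cytoskeleton, protein turnover and central carbon metabolism. Genes that vary little between organs are also sought as references for quantitative PCR. Organ-specific work, such as photosynthesis in shoots and nutrient uptake in roots, draws on other transcripts. In this plant the bitter secoiridoid glycosides and the xanthones are the metabolites of medical interest. Neither names nor functions come with the unigenes in these files, so none of the members is assigned to these roles, and the labelled organs could not be checked against marker genes.

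Together the members held 7.37% of all TPM in roots and 5.72% in aerial tissues. Their levels spanned 200.66 to 3477 TPM in roots, with a median of 401.3, and 201.51 to 3905 TPM in aerial tissues, with a median of 297. In both libraries 6 members reached 1000 TPM and 21 reached 500 TPM. The 10 members with the highest mean level held 26.2% of the members' root TPM and 26.8% of their aerial TPM. Within this abundant set the upper tail was short, and 75 of the 133 had under 300 TPM in the lower of the libraries. The rule's minimum of 200 TPM sets where these levels begin. In rank, 128 members stood among the 500 most abundant unigenes of roots and 132 among the 500 of aerial tissues. Among the 100 most abundant they numbered 28 in roots and 10 in aerial tissues. Of the 20 unigenes that the leading 100 of both libraries share, 9 were members.

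**Figure D1:**
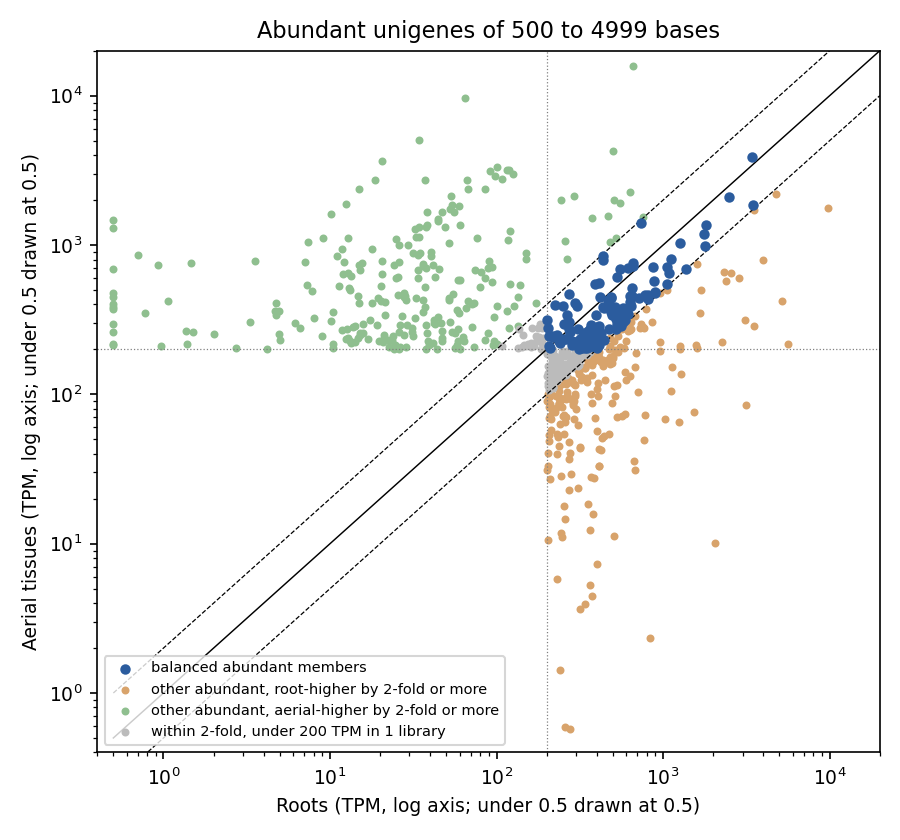
TPM in roots (x axis) against TPM in aerial tissues (y axis), both on log axes, for unigenes of 500 to under 5000 bases with at least 200 TPM in either library. Each point is 1 unigene, the solid line marks equal TPM, the dashed lines mark 2-fold, and the dotted lines mark 200 TPM. The 133 members fill the corner between the dashed lines, and 103 of them lie on the root side of equality.

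Both libraries reached 200 TPM for 193 unigenes of the length window, and 133 of these (68.9%) lay within 2-fold, which the rule itself fixed. The 60 others are set apart by organ: 46 were root-higher and 14 aerial-higher by 2-fold or more. With 200 TPM in either library the pool was 764 unigenes, of which 36.3% lay within 2-fold, and over all unigenes of the window with at least 20 counts 66.3% did. The pool held 232 that were root-higher and 255 that were aerial-higher by 2-fold or more, and 144 within 2-fold that reached 200 TPM in 1 library only.

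The most abundant members kept high levels in both organs. Unigene75468 (714 bases) had a root level of 3418 TPM (rank 13) and an aerial level of 3905 TPM (rank 8). Unigene73887 (742 bases) had a root level of 2503 TPM (rank 18) and an aerial level of 2105 TPM (rank 30). For these 2, the ratios of roots over aerial tissues were 0.875 (95% exact interval 0.850 to 0.901) and 1.19 (1.15 to 1.23), on either side of equality. Unigene39936 (990 bases) leant further: it had 3477 TPM in roots against 1856 TPM in aerial tissues, a ratio of 1.87 (1.82 to 1.93). Unigene64553 (1248 bases) had 1820 TPM in roots against 1359 TPM in aerial tissues, and Unigene42447 (1088 bases) 1765 TPM in roots against 1178 TPM in aerial tissues. Of these 5, Unigene75468 alone was higher in aerial tissues.

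A minority of the members had near-equal levels. Within 1.1-fold lay 13 members and within 1.2-fold 30. The same shares were not taken outside the set, so these counts are not shown to be particular to the members. The closest was Unigene19469 (913 bases), at 273.50 TPM in roots, from 885 counts, against 273.71 TPM in aerial tissues, from 1061. Its ratio of 0.999 carried an interval of 0.913 to 1.09. Unigene25523 (854 bases) had 206 TPM in roots against 209.83 TPM in aerial tissues, and Unigene54130 (1526 bases) had 209 TPM in roots against 205 TPM in aerial tissues. These last 2 also lay close to the TPM minimum, where membership turns on a few TPM. For 8 of the 133 members the interval included 1. It lay wholly above 1 for 99 and wholly below 1 for 26. On the TPM scale most members thus differed between these libraries by more than counting error while staying under 2-fold. Error in the scaling of the libraries is not in these intervals. Such interval counts were not taken outside the set either, so they are not shown to be particular to the members.

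The members leant towards roots. Of the 133, 103 (77.4%) had a higher TPM in roots and 30 in aerial tissues, and the median ratio of roots over aerial tissues was 1.42, with quartiles of 1.08 and 1.67. The same lean ran through unigenes outside the set. Of 21255 unigenes of the length window with at least 20 counts over both libraries and within 2-fold, 62.4% were higher in roots. Of 1043 non-members within 2-fold with at least 50 TPM in both libraries, 75.7% were, with a median ratio of 1.31. The members' share is close to that of these well-expressed unigenes, so the lean is not particular to the members. In bulk tissue, more cells of a type and more RNA per cell cannot be told apart in such ratios.

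Part of the lean moves with the scale. The median log2 TPM ratio over the 32068 unigenes of the length window with at least 20 counts was 0.18 in favour of roots. Relative to that median, the members' median was 0.33 in place of 0.50, and 93 of the 133 lay on its root side. Scaling by TMM, which equalises the bulk of the unigenes between libraries, gave a median ratio of 1.251 among members, with 93 higher in roots. The non-members with at least 50 TPM had 65.8% higher in roots and a median of 1.16 on that scale. In CPM, counts scaled to the library total without transcript length, the members' median ratio was 1.51 and 105 were higher in roots. On that scale 125 of the 133 lay within 2-fold. CPM ratios are close to the TPM ratios times 1.06, so the rule largely fixed this count. The unigenes of the window with at least 20 counts, not chosen by their ratio, had 65.4% within 2-fold in CPM.

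The ratios were uneven within the limits. At a ratio of 1.5 or more stood 60 members, and 7 were aerial-higher by at least as much. Among the 21255 unigenes within 2-fold these shares were 20.9% and 10.7%. Those lean less to roots, with a median ratio of 1.13, than the non-members with at least 50 TPM, at 1.31. Neither these shares nor the steps below were taken for those non-members, so the surplus is not shown to be particular to the members. In steps of the ratio, 14 members lay from 1 to under 1.2, 21 from 1.2 to under 1.4, 26 from 1.4 to under 1.6, 23 from 1.6 to under 1.8 and 19 from 1.8 to under 2. The fullest of these steps lay away from equality. The rule cut through the root side of this distribution: with 200 TPM in both libraries, 21 root-higher unigenes had ratios from 2 to under 2.5, while 3 aerial-higher unigenes were as close to the other limit.

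The limits separate neighbours that counting error does not. Unigene17798 (911 bases) had 1377 TPM in roots against 690 TPM in aerial tissues, a ratio of 1.996 (1.90 to 2.09), just inside. Unigene53339 and Unigene55727 followed at 1.98 (1.82 to 2.15) and 1.94 (1.804 to 2.092). Unigene56867 (842 bases) lay just outside, with 481 TPM in roots against 239 TPM in aerial tissues, a ratio of 2.01 (1.84 to 2.19). On the aerial side Unigene50741 (857 bases) had 433 TPM in roots against 847 TPM in aerial tissues, a ratio of 0.511 (0.478 to 0.545). Unigene45432 and Unigene67016 came next at 0.523 and 0.547, with intervals inside the limit. Unigene62022 (2096 bases) lay just outside at 0.491 (0.477 to 0.506), with 753 TPM in roots against 1532 TPM in aerial tissues. For 11 members the interval reached past 2-fold, and for 122 it stayed inside.

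At the TPM minimum the set fades into a larger one. Unigene15642 (985 bases) had 200.66 TPM in roots against 317 TPM in aerial tissues, and Unigene30771 (818 bases) had 313 TPM in roots against 201.51 TPM in aerial tissues. Just below, Unigene41457 had 191 TPM in roots against 238 TPM in aerial tissues, and Unigene21352 had 311 TPM in roots against 199.75 TPM in aerial tissues. The lower TPM was from 200 to under 250 for 49 members, and from 150 to under 200 for 108 unigenes that met the other conditions. For 41 of the 49 the lower library was the aerial one.

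Reads behind the members were many. Counts per member ran from 572 to 12433 in roots, with a median of 1595, and from 451 to 11033 in aerial tissues, with a median of 1470. The half-width of the 95% exact interval of the ratio was 1.07-fold in the median member and at most 1.13-fold. Differences between plants are not in these intervals.

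More of the shorter members than of the longer ones leant towards roots. Members ranged from 569 bases (Unigene26842, 346 TPM in roots against 221 TPM in aerial tissues) to 3040 bases (Unigene18679, 559.88 TPM in roots against 357 TPM in aerial tissues), with a median of 1058. Of the 59 under 1000 bases, 50 (84.7%, 95% Wilson interval 73.5 to 91.8) were higher in roots, with a median ratio of 1.52. Of the 64 from 1000 to under 2000 bases, 48 (75%, 63.2 to 84.0) were, with a median of 1.39. Of the 10 from 2000 bases on, 5 were, with a median of 1.00. That last class is small, and without it the step is from 1.52 to 1.39, with overlapping intervals of the shares. Across the 133 members, which are not independent replicates, Spearman's rho of length and log2 ratio was -0.23. The non-members within 2-fold at 50 TPM or more showed the same order: 81.5% of 426, 72.6% of 493 and 68.5% of 124 were higher in roots in these classes, with medians of 1.42, 1.27 and 1.19, and rho was -0.18.

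**Figure D2:**
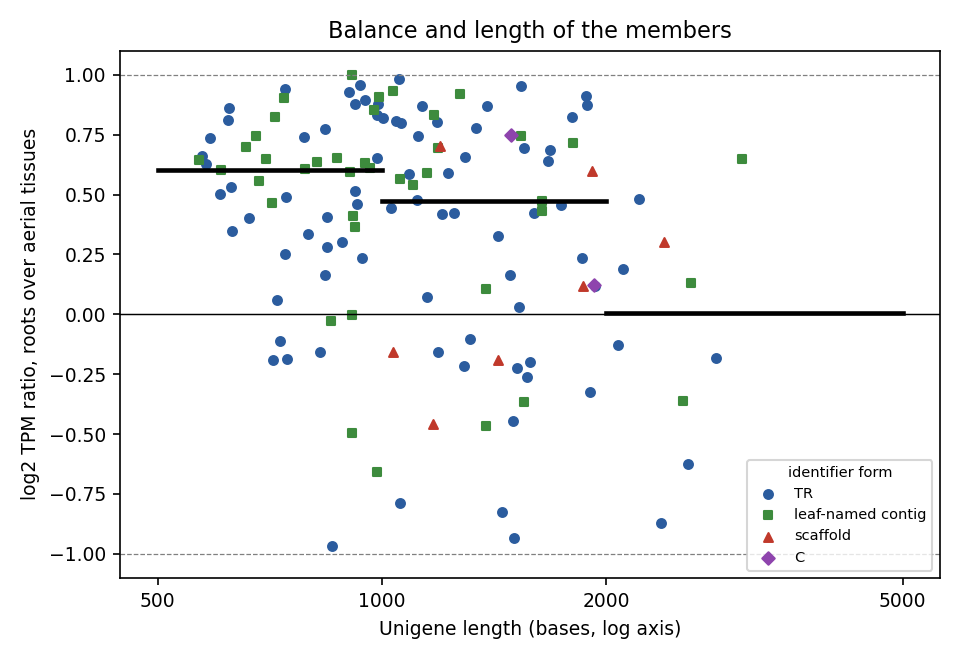
Log2 TPM ratio of roots over aerial tissues (y axis) against unigene length in bases (x axis, log) for the 133 members, with the symbol giving the form of the identifier. Thick bars are the median ratio of each length class (1.52, 1.39 and 1.00) and dashed lines the 2-fold limits; points below 0 are higher in aerial tissues.

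In length the members were close to the unigenes of the window as a whole, which had a median of 1127 bases and 43.2% (42.7 to 43.6) under 1000 bases. Most of that window has few reads, with a median of 24 root counts. Non-members with at least 500 root counts were longer, with a median of 1552 bases and 20.7% (18.4 to 23.3) under 1000 bases. The members' median of 1058 bases lay between 965 for the 232 that were root-higher and 1251 for the 255 that were aerial-higher by 2-fold or more. Under 1000 bases were 44.4% of members (36.2 to 52.8), 52.6% of the root-higher (46.2 to 58.9) and 31.4% of the aerial-higher (26.0 to 37.3). The interval of the members overlaps both. The 144 unigenes within 2-fold that reached 200 TPM in 1 library only had a median of 899.5 bases.

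The form of the identifier, which the rule did not use, differed among the members. Of the members, 83 carried an identifier starting with TR, 41 were contigs named with the words Swertia and Leaf, 7 were scaffolds and 2 had identifiers starting with C. Leaf-named contigs made up 30.8% of members (23.6 to 39.1), 30.2% of the root-higher unigenes (24.6 to 36.4) and 36.1% of the aerial-higher ones (30.4 to 42.1). Over all unigenes of the length window the share was 31.0% (30.5 to 31.4), at the level of the members. The TR form made up 62.4% of members (53.9 to 70.2), 59.5% of the root-higher unigenes (53.1 to 65.6), 57.6% of those within 2-fold that reached 200 TPM in 1 library only (49.5 to 65.4), 46.7% of the aerial-higher unigenes (40.6 to 52.8) and 52.6% of the whole window. Scaffolds made up 5.26% of members (2.57 to 10.5), 7.33% of the root-higher unigenes (4.63 to 11.4), 2.08% of those reaching 200 TPM in 1 library only (0.711 to 5.95), 13.3% of the aerial-higher unigenes (9.70 to 18.1) and 8.73% of the window. In both forms the members' interval overlapped those of the root-higher and the 1-library unigenes, so neither share is particular to the members. These intervals take each unigene as an independent case, although forms of 1 gene overlap. Among the members, 34 of the 41 leaf-named contigs were higher in roots, with a median ratio of 1.52, and 63 of the 83 of the TR form, with a median of 1.37. Outside the set, 70 leaf-named contigs were root-higher and 92 aerial-higher by 2-fold or more. For the TR form it was 138 and 119. Those unigenes lie past the limit, unlike the members. The share higher in roots was not taken by form for non-members within 2-fold, so no difference between forms is shown to be particular to the members.

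TR identifiers group unigenes into assembled genes, and most members stood alone in theirs. The 83 fell into 80 such genes, of which 68 had a single form. Another form existed for 15 of the 83 (18.1%, 11.3 to 27.7). That is below the 44.7% of all TR unigenes in the length window, but near the 18.5% (15.6 to 21.9) of non-members with at least 500 root counts, so it is not particular to the members.

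In 3 assembled genes both of a pair of forms were members, which by the rule puts each ratio within 2-fold. Unigene64553 and Unigene64554 (885 bases) had ratios of 1.34 and 1.23; the second had 1269 TPM in roots against 1031 TPM in aerial tissues. Unigene64809 (1880 bases) had 893 TPM in roots against 475 TPM in aerial tissues, and Unigene64807 (1797 bases) 815 TPM in roots against 460 TPM in aerial tissues, ratios of 1.88 and 1.77. Unigene54129 (1566 bases) had 206 TPM in roots against 247 TPM in aerial tissues, a ratio of 0.834, beside 1.02 for Unigene54130. The intervals of the first and the last pair do not overlap. Forms of 1 gene share sequence, so these pairs are not separate cases.

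The 17 other forms of genes that hold a member were not chosen by the rule, and 11 of them (64.7%) lay within 2-fold. Among TR unigenes with at least 100 counts outside the set, 67.5% did. The 17 come from 11 genes, 4 of them from 1 gene, and may share reads with members. They are too few to tell whether balance was more or less frequent among them. The median ratio of the 17 was 1.70; 5 were root-higher and 1 aerial-higher by 2-fold or more, and none reached 4-fold. Their counts over both libraries were at least 139 each. In 3 genes the forms parted at the limit. Unigene62021 (1903 bases) was a member with 552 TPM in roots against 690 TPM in aerial tissues, a ratio of 0.80, while Unigene62022, from the same gene, lay outside at 0.491. That gene summed to 0.59, and its member held 39.7% of the root and 28.8% of the aerial counts. Unigene62258 (621 bases) had 400.41 TPM in roots against 228 TPM in aerial tissues, a ratio of 1.76, while the 4 other forms of its gene had ratios of 2.24 to 2.90. Summed over its 5 forms that gene had a TPM ratio of 2.21, past the limit. Unigene62819 (1184 bases), with 359.96 TPM in roots against 206 TPM in aerial tissues, was a member at 1.74, and Unigene62820 of the same gene lay outside at 2.09. The other 11 of the 12 genes with several forms stayed within 2-fold when summed.

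**Figure D3:**
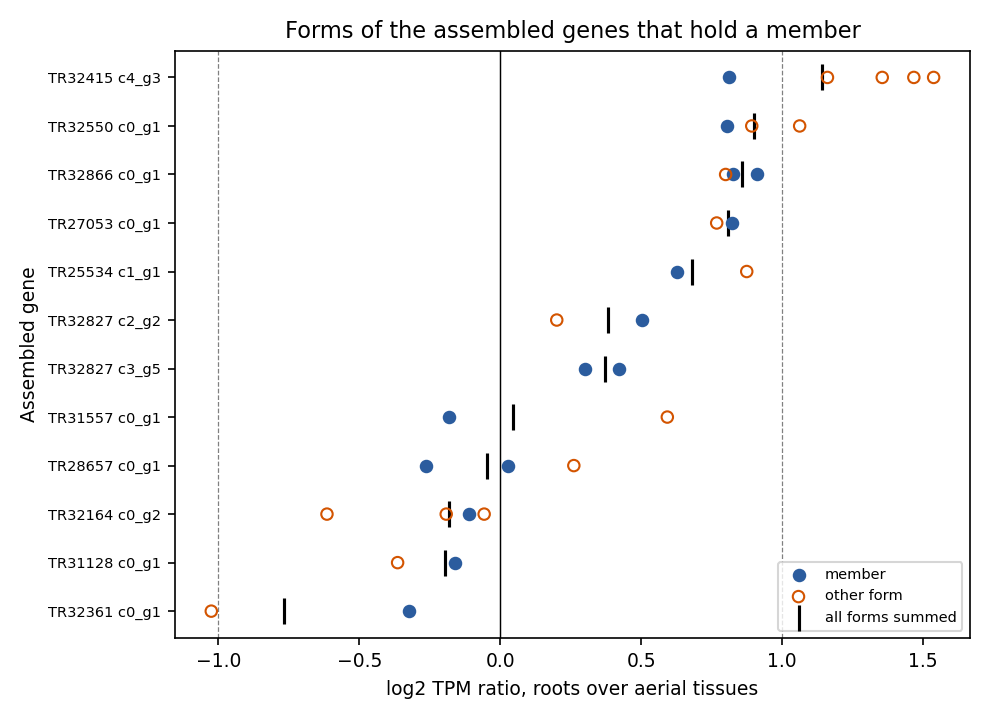
Log2 TPM ratio of roots over aerial tissues (x axis) for each form of the 12 assembled genes that hold a member and at least 1 more form (rows). Filled points are members, open circles other forms, black ticks the sum of all forms, and dashed lines the 2-fold limits; the uppermost gene sums to 2.21 and the lowest to 0.59.

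A second set of root values, in the series table, was not used by the rule. It is another quantification matched by name to the same root sample, not a replicate, and it is in FPKM, which scales reads by length and by library size. The median ratio of table to root file was 1.02 over unigenes with at least 50 root counts and 1.04 over the members. After division by 1.02, 79 members lay within 1.1-fold, and 25 of the 133 (18.8%, 13.1 to 26.3) were 1.5-fold or more apart. The share was 30.1% over all unigenes of the length window with at least 50 root counts. It was 21.0% over the non-members with at least 500, near the members' share. Those non-members had fewer reads, with a median of 759 root counts against 1595 for the members. How many lay within 1.1-fold was not counted outside the set.

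Where the quantifications parted, the members' gaps reached further downward than upward. Of the 25 members, 16 were lower in the table and 9 higher, and 8 were lower by more than 10-fold. Gaps of more than 10-fold were not counted outside the set, so those 8 are not shown to be particular to the members. Over the window with at least 50 root counts, 4351 unigenes were 1.5-fold or more apart, 2881 lower and 1470 higher. Among the non-members with at least 500 root counts it was 221, 119 lower and 102 higher, and 39 were listed at 0. The downward lean is therefore not particular to the members. Of the members, Unigene10099 (1431 bases) and Unigene10684 (2393 bases), both scaffolds, were listed at 0 in the table, beside 278 and 296 FPKM in the root file. Those file values rest on 1463 and 2757 root counts. Unigene37960 (1273 bases) had 1.41 FPKM in the table, against 604 in the root file. The highest in the other direction was Unigene59993 (2107 bases), at 1309 FPKM in the table, against 458 in the root file, followed by Unigene41569 (573 bases) with 794 and 359 FPKM. Of the 7 scaffolds 4 were among the 25, of the 41 leaf-named contigs 6, and of the 83 of the TR form 14. The scaffolds are few, and shares by form were not taken outside the set. A difference between forms is therefore not shown to be particular to the members.

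**Figure D4:**
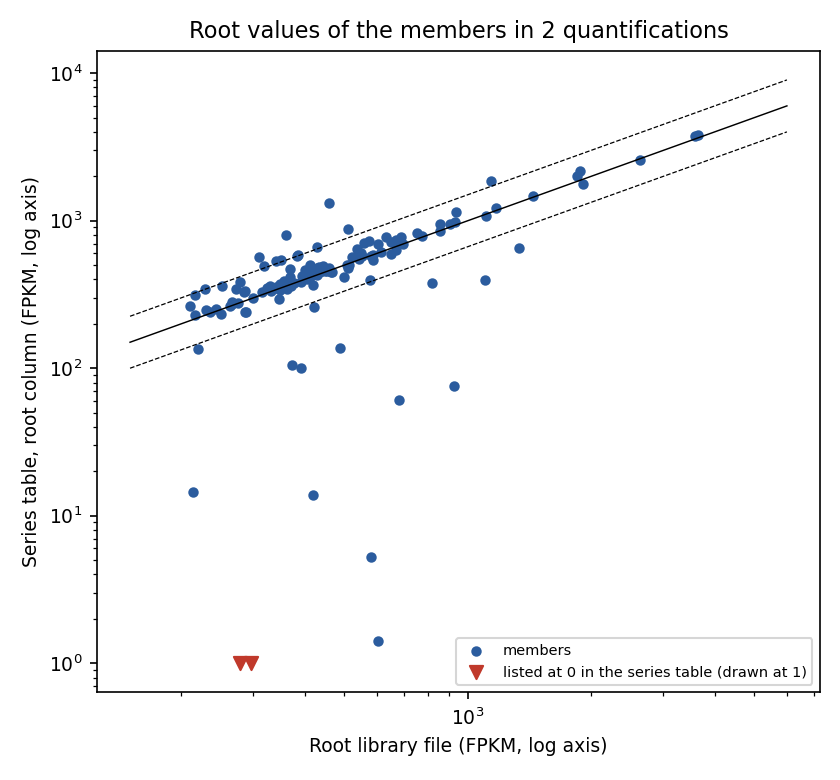
Root FPKM of the 133 members in the root library file (x axis) and in the series table (y axis), both on log axes. The solid line marks equal values and the dashed lines 1.5-fold, both without division by the median ratio of 1.02. On that footing 27 members are 1.5-fold or more apart, and 25 after the division. The 2 members listed at 0 in the table are drawn as triangles at 1, and 16 of the 25 discordant members fall below.

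Summing forms removed some of these gaps and not others. In the 12 genes with several forms, 5 of the 15 members were 1.5-fold or more apart, and 3 of the 12 summed genes were. Unigene54130 was lower in the table at 136 FPKM against 219 FPKM in the file, and Unigene54129 higher at 313 against 215 FPKM; their gene summed to 0.991 of the file value. By contrast Unigene50471 (580 bases) had 75.3 FPKM in the table and 925 in the file, and its gene summed to 0.0741 of the file value. Unigene64547 (606 bases) had 61.2 FPKM in the table and 679 in the file, and its gene summed to 0.0854. How reads that match several unigenes were counted in either quantification was not stated in the labels or file headers, and its part in these gaps was not tested.

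With the table's root value in place of the file's, scaled by the median ratio and put on the TPM scale, 111 of the 133 members stayed within 2-fold of their aerial TPM, 110 of them at 200 TPM or more in roots. Of the other 22, 11 became root-higher and 11 aerial-higher by 2-fold or more. For those 22, the balance held with the root file's value and not with the table's. Only the root value was swapped, so the root and aerial values then come from unlike quantifications. A unigene that the table's method scores low can turn aerial-higher by that alone. The swap was not made outside the set, so these counts are not shown to be particular to the members.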

How the data were processed

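Roots and aerial tissues of Swertia japonica gave 1 RNA-seq library each. Per the submitters' processing notes, Trimmomatic and RSEM were used, with versions, assembler and aligner not given in the sources used here. Expected counts, as deposited, carry no normalisation and include 0 non-whole values in either library. The deposited TPM and FPKM values are relative to effective length, and TPM has 1 fixed sum; lengths and the other columns come per the file headers, and the isoform percentage deposited by the authors was not used. A series table deposited by the authors adds unigene names and a second root FPKM. A further 1 per-sample column, named for leaf, was not used.

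Libraries were joined by transcript. Ratios are roots over aerial tissues. Exact (Clopper-Pearson) intervals at 95% come from the division of the reads; they hold counting error alone, and PCR copies of 1 molecule cannot be recognised. Shares carry Wilson intervals. The rule and intervals were tested on simulated data. The members, the comparisons and the rule for named unigenes (highest mean TPM, nearest to balance, at each limit, longest, shortest, most discordant in roots, sharing a gene) were chosen with earlier results of these data known. Beyond that rule, Unigene37960, Unigene50471, Unigene64547, Unigene62021, Unigene62258, Unigene62819 and Unigene62820 were named after their values were seen. Alternatives covered thresholds, units, edgeR 4.0.16 TMM and DESeq2 1.42.0 size factors. Python 3.11.15, numpy 2.4.6, pandas 2.3.3, scipy 1.17.1, matplotlib 3.10.9 and R 4.3.3 were used.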

Additional observations from a re-analysis of the deposited data

How the results depend on the processing

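Across 27 alternatives, 6 counts moved by more than 1.5 times and 13 by less. Among medians and shares, 0 moved by more than 1.5 times. The members' median ratio was set against 1.31 to 1.54, the medians of the members' own lower and upper bounds. That is the width for a typical member, not the counting error of a median over the 133. Medians in CPM and FPKM, both 1.51, lay inside it, and those with TMM and DESeq2 outside. A minimum of 100 TPM gave 491 members and of 500 TPM gave 21, and a limit of 1.5-fold gave 66, all by construction. TMM or DESeq2 size factors gave 145 members each, of which 129 were shared with the 133. The median ratio of roots over aerial tissues was 1.251 with TMM and 1.247 with DESeq2, without changing direction. The members held 7.70% of root and 5.80% of aerial counts, and 9.34% and 7.07% of the TPM of unigenes of at least 500 bases. At 2-fold, 16 members differed between the root quantifications. Of the 17 other forms, 5 lay within 1.5-fold and 17 within 3-fold. The lowest count of a member was 451. The minima of TPM and length largely fix that count, so it cannot show whether depth limits membership. No library could be left out. No paired analysis was possible because roots and aerial tissues have 1 library each.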
